A study of Mus musculus with 2 samples.

Results

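The 6 genes described here encode receptors that place thymocytes within the thymus, *Ccr9*, *Cxcr4*, *Ccr4* and *Ccr7*, and the egress pair *S1pr1* and *Klf2*. They were selected by symbol from the 21041 genes of the RNA-seq table, with earlier results of these data known, and all 6 are listed there. The table holds 1 library of CD4 and CD8 double-positive (DP) thymocytes from wild-type (WT) mice and 1 from *Cxxc1*-deficient mice. In the study's methods the WT mice carry the floxed *Cxxc1* allele without Cre, with loxP sites around exons 4 and 5. The deficient mice add Cre under the human *CD2* promoter (*Cxxc1* fl/fl hCD2-Cre), which acts in early thymocytes and in other immune cells. The genotype label of the deficient library reads Cxxc1+/-, and the library was grouped by its title, Cxxc1.KO.mRNA-seq. Mice were 3 to 4 weeks old unless specified otherwise. The number and sex of the mice are not given in the sources used here.

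Thymocytes move through the thymus under chemokine receptors that change with each stage. CCR9 answers to CCL25 of the thymic epithelium and is a receptor of DP cells, and CXCR4 answers to CXCL12 and holds immature thymocytes in the cortex. After positive selection, cells gain CCR4 (ligands CCL17 and CCL22) and then CCR7 (ligands CCL19 and CCL21), which draw them into the medulla. Mature single-positive (SP) cells then express the transcription factor KLF2, which switches on *S1pr1*, and the sphingosine-1-phosphate receptor S1PR1 leads them out of the thymus.

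Each genotype has 1 library, so no difference can be checked against replicates, and no test was run. The deposited values are per gene and behave as reads per transcript length, so levels of different genes are compared per length. The step in the low values gave the worth of 1 read (4.06 in WT DP cells and 4.70 in *Cxxc1*-deficient DP cells for a 1-kb transcript), and approximate reads and 95% intervals follow from it; these cover counting error only. The targeted gene, *Cxxc1*, had 91 in WT DP cells and 50 in *Cxxc1*-deficient DP cells, and its value is not limited to the deleted exons. The interval of its fold reduction was 1.14 to 2.96. The value of 50, on approximately 28 reads, is above the background median of 24 but under the background limit of 57, both described next. By that limit, which takes no account of transcript length, it could not be told from background. By qPCR the paper found *Cxxc1* mRNA almost undetectable in DP cells of the deficient mice, and western blot showed loss of the protein. Values sum to 1551994 for the WT library and 981677 for the *Cxxc1*-deficient library, and the median gene has 36 in each. Olfactory receptor genes, which thymocytes are not known to use, served as a measure of background; 1122 of them had a median of 22 in WT DP cells and 24 in *Cxxc1*-deficient DP cells, with 95% at or below 53.95 and 57. All 10 markers of the DP stage were above these limits in both libraries, with medians of 2166.5 and 540. Of the 7 markers of the earlier double-negative (DN) stage, 6 were higher in *Cxxc1*-deficient cells, beside 7493 of 20125 genes above 0 in at least 1 library. *Il2ra* went from 63 to 207, *Notch1* from 124 to 326 and *Notch3* from 56 to 167. *Kit* (35 and 36), *Dtx1* (37 and 41) and *Hes1* (28 and 52) were under the olfactory limits, with intervals of the ratio that include 1. *Ptcra* went the other way, from 79 to 44, with an interval that also includes 1. The part of DN cells in the values below was not tested, and in bulk RNA fewer cells of a type and less RNA per cell cannot be told apart.

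The 6 genes fell into 2 sets by level. *Ccr9*, *Cxcr4* and *Ccr4* were well above background in WT cells and were each at least 2-fold lower in *Cxxc1*-deficient cells. *Ccr7*, *S1pr1* and *Klf2* lay within the range of the olfactory receptor genes in both libraries and none of them differed by 2-fold. So 3 of 6 genes were at least 2-fold lower, where 17.4% of the 20125 genes above 0 in at least 1 library were, and 0 of 6 were at least 2-fold higher, where 5.89% of all genes were. Where the mean of both libraries was 100 or more, 56.8% of 2472 genes were at least 2-fold lower, and the 3 of 3 abundant receptors are to be read beside that share. The median log2 ratio was -0.59 over the 6 genes and -0.20 over all genes. When the libraries were scaled to equal medians of these expressed genes, 1 of the 6 was at least 2-fold lower and 3 were at least 2-fold higher. The 3 were *Ccr7*, *S1pr1* and *Klf2*. In that setting 706 of the 20125 genes were at least 2-fold lower and 7492 were at least 2-fold higher. With quantile normalization 0 of the 6 passed 2-fold in either direction, where 1686 of all genes were lower and 1650 higher.

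**Figure D1:**
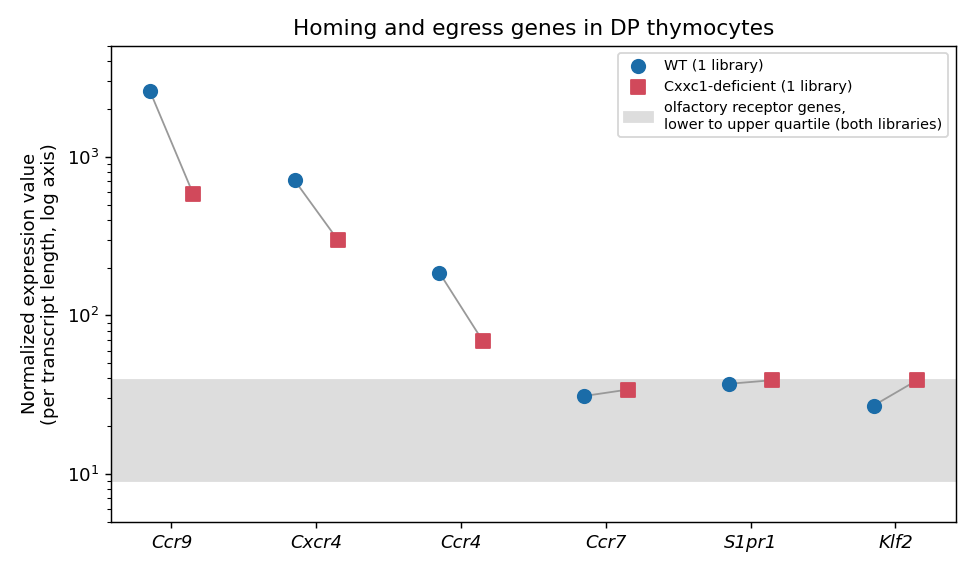
Normalized expression value per transcript length (log axis) of the 6 genes in the WT library (circles) and the *Cxxc1*-deficient library (squares), 1 library each, with the range between the quartiles of olfactory receptor genes in grey. *Ccr9*, *Cxcr4* and *Ccr4* lie above the grey range in both libraries and are lower in *Cxxc1*-deficient cells, whereas *Ccr7*, *S1pr1* and *Klf2* lie in or at the top of it.

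*Ccr9* lies on the plus strand of chromosome 9 of mm9, from 123587557 to 123691089, a span that takes in 6 other annotated genes, of which the 3 in the table reach at most 88. Its value was 2614 in WT DP cells and 583 in *Cxxc1*-deficient DP cells, and it ranked 15th and 31st among all genes. The value was thus 4.48-fold lower in *Cxxc1*-deficient cells, with an interval from 4.01 to 5.03 (Clopper-Pearson) that rests on approximately 1936 and 372 reads. Among the 41 other genes with a mean from 800 to under 1600, of which the median was -1.66 on the log2 scale, 7 had a log2 ratio at or below the -2.16 of *Ccr9*; in that level class 83.3% of genes were at least 2-fold lower. Of the genes of the homing and marker lists, the one nearest to *Ccr9* in both libraries was *Cd8b1*, the CD8 beta chain, with 2855 and 611.

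*Cxcr4* (chromosome 1, 130484776 to 130488870, minus strand) had 711 in WT DP cells and 298 in *Cxxc1*-deficient DP cells. The value was 2.39-fold lower in *Cxxc1*-deficient cells, with an interval from 1.92 to 2.99 on approximately 316 and 114 reads. This difference was smaller than that of most genes of its level. Of the 171 other genes with a mean from 400 to under 800, 121 (70.8%) had a ratio at least as low, and 83.7% of the class were at least 2-fold lower. Its rank moved from 170 in WT to 145 in *Cxxc1*-deficient cells, so *Cxcr4* was lower in value yet stood higher among the genes of its library, and with quantile normalization, which keeps only ranks, its log2 ratio was 0.13. The nearest listed gene was *Stk4*, a kinase of lymphocyte migration and survival, with 773 and 314.

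*Ccr4* (chromosome 9, 114399434 to 114405662, minus strand) had 186 in WT DP cells and 69 in *Cxxc1*-deficient DP cells. In WT cells its value was above every olfactory receptor gene, of which the highest had 81, and in *Cxxc1*-deficient cells 10 of the 1122 olfactory receptor genes were at 69 or above. The value was 2.70-fold lower, with an interval from 1.88 to 3.93 on approximately 128 and 41 reads. Of the 1604 other genes with a mean from 100 to under 200, 310 (19.3%) had a ratio at least as low, and 50.1% of the class were at least 2-fold lower. Its rank went from 1519 in WT to 2729 in *Cxxc1*-deficient cells. *Cd1d1*, the antigen-presenting molecule by which DP cells select NKT cells, was the nearest listed gene, with 183 and 69.

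**Figure D2:**
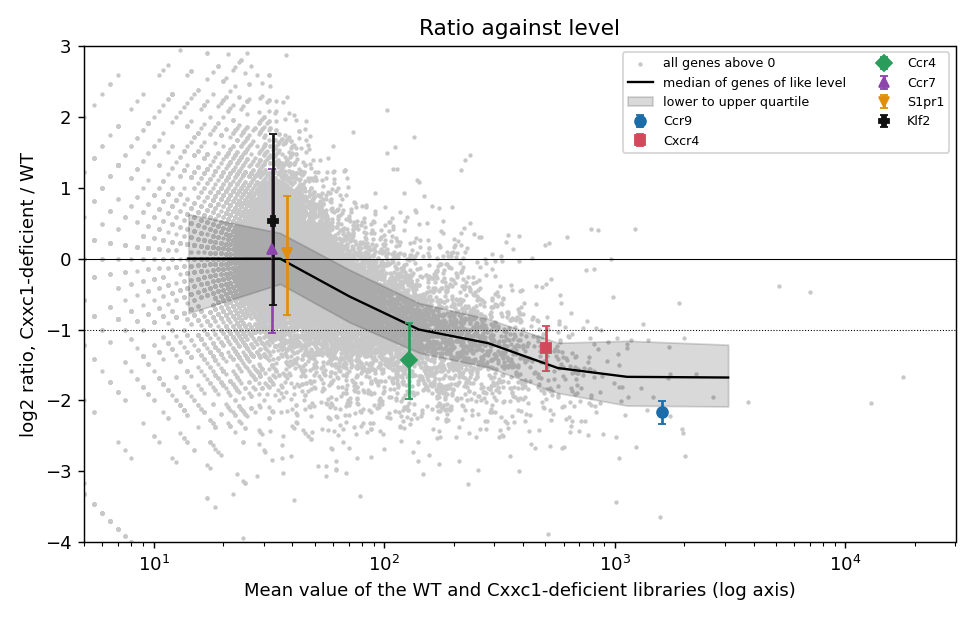
Log2 ratio of *Cxxc1*-deficient to WT against the mean of both libraries (log axis) for all genes above 0 (grey points), with the median and the quartile range of genes of like level; coloured symbols are the 6 genes with approximate 95% counting intervals. Ratios decline with level, *Ccr9* lies below the quartile range near its level, *Cxcr4* lies above the median for its level, and the 3 low genes lie around 0.

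*Ccr7* (chromosome 11, 99005510 to 99016391, minus strand) had 31 in WT DP cells and 34 in *Cxxc1*-deficient DP cells. The value was 1.10 times that of WT DP cells, with an interval from 0.484 to 2.41 on approximately 15 and 14 reads. Olfactory receptor genes reached the value of *Ccr7* in 32.0% of cases in WT DP cells and 33.7% in *Cxxc1*-deficient DP cells.

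*S1pr1* (chromosome 3, 115413351 to 115417973, minus strand) had 37 in WT DP cells and 39 in *Cxxc1*-deficient DP cells, which is a 1.05-fold ratio, with an interval from 0.579 to 1.84. Approximately 28 and 25 reads underlie these values, the most of the 3 low genes. They stand close to the median of 36 over all genes.

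*Klf2* (chromosome 8, 74842932 to 74845555, plus strand) had 27 in WT DP cells and 39 in *Cxxc1*-deficient DP cells. The ratio of 1.44 was the highest of the 6 genes, but its interval from 0.634 to 3.39, on approximately 12 and 15 reads, includes 1. Of the 9899 other genes with a mean from 25 to under 50, 15.5% had a ratio at least as high, and in that class 4.48% were at least 2-fold higher and 5.55% at least 2-fold lower. Transcripts of *Ccr7*, *S1pr1* and *Klf2* were not detectable above background at this depth, and a difference within their intervals could not have been seen.

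**Figure D3:**
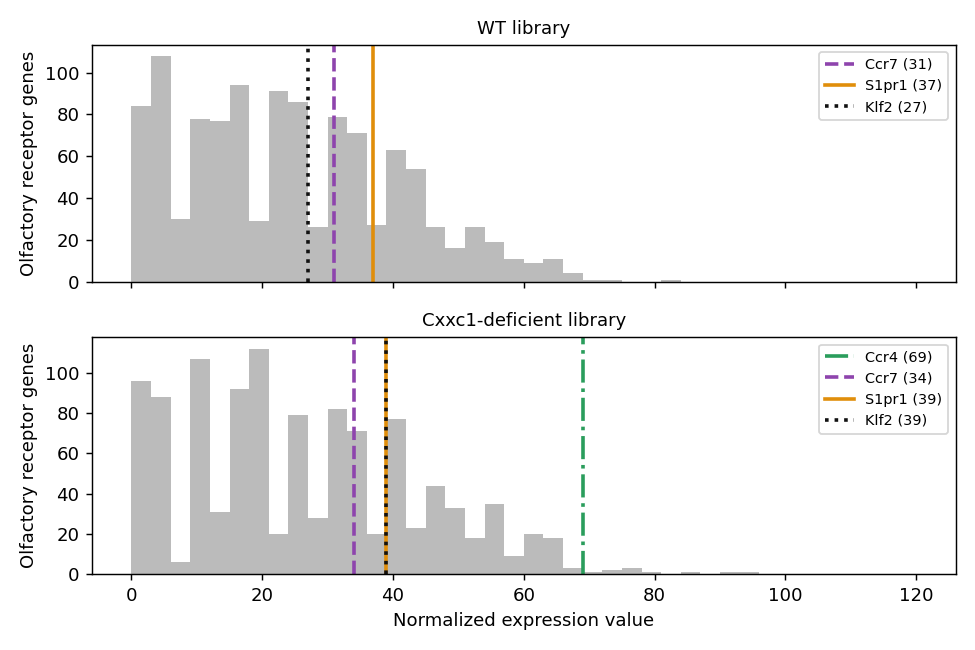
Numbers of olfactory receptor genes (vertical axis) by normalized expression value (horizontal axis) in the WT library (upper) and the *Cxxc1*-deficient library (lower), with vertical lines at those of the 6 genes whose value is under 120. *Ccr7*, *S1pr1* and *Klf2* fall within the bulk of the distribution in both libraries, and *Ccr4*, at 69, lies near its upper end in *Cxxc1*-deficient cells.

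The order of levels was *Ccr9*, *Cxcr4*, *Ccr4* and then the 3 low genes in both libraries. The counting intervals of the first 3 did not overlap each other or those of the low genes in WT cells, where that of *Ccr4* ran from 155 to 221 and that of *S1pr1* from 24.9 to 54.2. In *Cxxc1*-deficient cells the interval of *Ccr4*, from 49.7 to 93.9, overlapped those of *S1pr1* (25.1 to 57.3), *Ccr7* (18.2 to 55.9) and *Klf2* (21.4 to 63.0). The low genes could not be ordered in either library. *Ccr9* made up 72.5% of the summed value of the 6 genes in WT cells and 54.9% in *Cxxc1*-deficient cells.

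Ratios between 2 genes of the same library do not change when a library is multiplied by 1 factor, but they do change with quantile normalization or subtraction of a background. *Ccr9* was 3.68 times *Cxcr4* in WT cells and 1.96 times in *Cxxc1*-deficient cells, a 1.88-fold shift with an interval from 1.46 to 2.40 (conditional odds ratio on the approximate reads). Against *Ccr4*, *Ccr9* went from 14.1 to 8.45 times, a 1.66-fold shift with an interval from 1.12 to 2.43. With quantile normalization these 2 genes hardly differed, with log2 ratios between the libraries of -0.65 for *Ccr9* and -0.60 for *Ccr4*. The ratio of *Cxcr4* to *Ccr4* was 3.82 in WT DP cells and 4.32 in *Cxxc1*-deficient DP cells, with an interval of the shift from 0.572 to 1.36 that includes 1. The 9 ratios of an abundant to a low gene rest on values not detectable above background and are not given. The 3 ratios among the low genes had intervals that include 1. The intervals are not adjusted for the 15 pairs computed, and they compare the libraries rather than the genotypes.

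**Figure D4:**
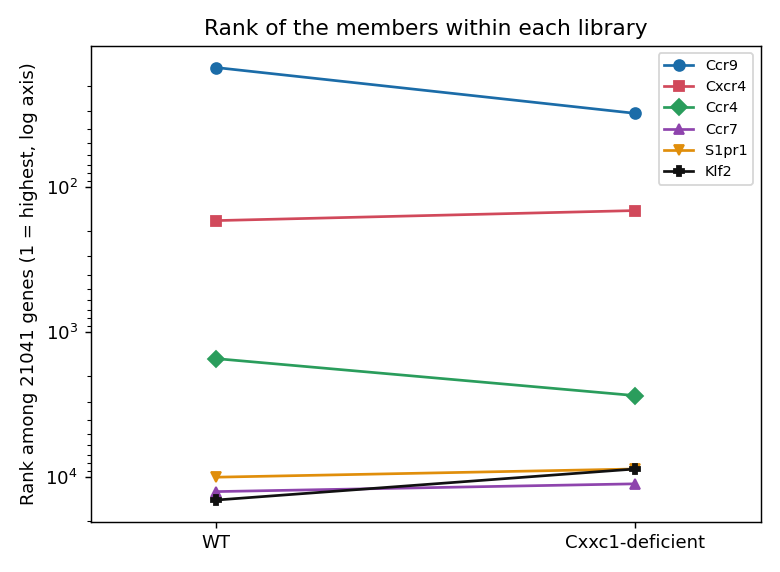
Rank of each of the 6 genes among the 21041 genes of its library (log axis, 1 is the highest value) in the WT and the *Cxxc1*-deficient library. *Ccr9* and *Ccr4* moved down in rank, *Cxcr4* moved from 170 to 145, and *Ccr7*, *S1pr1* and *Klf2* lie between ranks 8747 and 14314.

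CXXC1 binds unmethylated CG dinucleotides, so the promoters of 4 of the 6 genes, as RefSeq gives them for build GRCm38.p6 (250 bases before to 50 after the start, 5′ to 3′ on the gene's strand), are shown with each CG in capitals; those of *Ccr7* and *S1pr1* are not shown. They are at chr9:123766961-123767260 (plus, *Ccr9*), chr1:128592250-128592549 (minus, *Cxcr4*), chr9:114496495-114496794 (minus, *Ccr4*) and chr8:72318812-72319111 (plus, *Klf2*).
Ccr9: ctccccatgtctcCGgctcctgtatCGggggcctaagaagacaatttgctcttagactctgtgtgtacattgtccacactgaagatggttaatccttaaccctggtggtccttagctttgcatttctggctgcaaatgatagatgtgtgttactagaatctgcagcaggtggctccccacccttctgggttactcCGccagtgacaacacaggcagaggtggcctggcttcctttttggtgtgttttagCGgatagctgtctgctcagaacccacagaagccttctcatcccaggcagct
Ccr4: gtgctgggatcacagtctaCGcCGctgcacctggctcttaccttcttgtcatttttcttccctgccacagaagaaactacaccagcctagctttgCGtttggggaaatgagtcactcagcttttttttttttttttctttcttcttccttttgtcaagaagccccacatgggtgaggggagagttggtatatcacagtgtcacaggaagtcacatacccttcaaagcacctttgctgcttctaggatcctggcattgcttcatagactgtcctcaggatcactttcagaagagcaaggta
Cxcr4: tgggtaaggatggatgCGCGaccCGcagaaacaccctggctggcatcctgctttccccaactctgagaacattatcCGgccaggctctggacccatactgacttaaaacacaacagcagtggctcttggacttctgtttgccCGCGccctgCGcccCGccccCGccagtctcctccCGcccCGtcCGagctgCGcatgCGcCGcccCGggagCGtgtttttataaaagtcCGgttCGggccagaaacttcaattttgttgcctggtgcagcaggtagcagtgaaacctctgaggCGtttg
Klf2: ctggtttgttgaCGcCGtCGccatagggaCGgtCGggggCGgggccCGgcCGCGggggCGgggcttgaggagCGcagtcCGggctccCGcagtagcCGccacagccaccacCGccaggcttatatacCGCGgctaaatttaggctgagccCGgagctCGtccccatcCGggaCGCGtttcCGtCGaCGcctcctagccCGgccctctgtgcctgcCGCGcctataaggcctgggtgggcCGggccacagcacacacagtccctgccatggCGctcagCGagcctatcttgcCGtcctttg
The *Ccr9* and *Ccr4* promoters hold 4 and 3 CG, those of *Cxcr4* and *Klf2* 20 and 32. Of the 32851 promoters of the same length, 94.6% hold at least 1 CG, 26.5% hold at least as many as that of *Cxcr4* and 76.7% at least as many as that of *Ccr4*. Among the abundant receptors, *Ccr9* and *Ccr4* had few CG and *Cxcr4* had more. The shift of *Cxcr4* against *Ccr4* between the libraries had an interval from 0.572 to 1.36. The ratios of these 2 genes could thus not be ordered. Of the 2472 expressed genes (a mean of 100 or more), 1917 had a matched promoter. Their median log2 ratio was -1.11 for 122 genes with at most 5 CG, -1.03 for 258 genes with 6 to 14 and -1.09 for 1537 genes with at least 15. A link between CG number and ratio was not tested. Binding of CXXC1 at these promoters was not analysed here. In the paper, CXXC1 signal of DP cells was enriched at the middle of CpG islands and accumulated at transcription start sites. A small part of its binding sites lay at CpG islands. In the same study, a CXXC1 mutant without DNA-binding activity still allowed the step from DN to DP.

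The other chemokine receptors were near background. Of 15 in the table, none exceeded the level that 95% of olfactory receptor genes do not pass, in either library, and their median was 33 in WT DP cells and 38 in *Cxxc1*-deficient DP cells. *Cxcr3*, a receptor of effector T cells, had 13 in WT DP cells and 38 in *Cxxc1*-deficient DP cells, with an interval from 0.977 to 8.59. *Ccr8* was the only 1 of the 15 that was at least 2-fold lower, with 28 and 8, where 17.4% of all genes were, and 2 were at least 2-fold higher, where 5.89% were. The interval of the ratio of *Ccr8*, from 0.03 to 1.45 on approximately 8 and 2 reads, includes 1. *Ccr1* had 30 and 55, with an interval of the ratio from 1.02 to 3.32. *Ccr2* had 46 and 55, and 10 others differed by less than 1.5-fold in either direction.

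Of the ligands, *Ccl19*, *Ccl21a*, *Ccl21b* and *Ccl21c*, which bind CCR7, were listed at 0 in both libraries. *Ccl25*, the ligand of CCR9, had 65 in WT DP cells and 26 in *Cxxc1*-deficient DP cells, with an interval of the ratio from 0.126 to 1.02. *Cxcl12*, the ligand of CXCR4, had 77 and 73. Among the ligands, *Cxcl12* exceeded the olfactory limit in both libraries and *Ccl25* in WT DP cells only. The CCR4 ligands were low, *Ccl17* with 16 and 27 and *Ccl22* with 29 and 36. Markers of thymic epithelium and stroma were in general at background, and 1 of 8, the endothelial gene *Pecam1*, exceeded the olfactory limit in both libraries.

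The S1P axis was mostly at background too. *S1pr2*, *S1pr3* and *S1pr5* lay between 37 and 57 in both libraries. *S1pr4*, a receptor of lymphocytes, had 71 in WT DP cells and 39 in *Cxxc1*-deficient DP cells, with an interval of the ratio from 0.223 to 1.16. The phosphatase gene *Sgpp1*, named after its value was seen, was the single gene of the 10 that was at least 2-fold lower, with 300 and 115, where 17.4% of all genes were.

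All of the listed KLF and FOXO factors except *Klf4* had higher values than *Klf2* in both libraries. *Foxo1*, which drives *Klf2* and *Il7r* in T cells, had 199 in WT DP cells and 86 in *Cxxc1*-deficient DP cells. Of the 10 KLF and FOXO genes, 3 were at least 2-fold lower and 2, *Klf4* (13 and 26) and *Klf11* (46 and 93), were at least 2-fold higher, beside 17.4% and 5.89% of all genes. *Klf4* lay within the range of the olfactory receptor genes in both libraries. Its interval of the ratio, from 0.853 to 4.82 on approximately 10 and 17 reads, includes 1. *Klf11* exceeded the olfactory limit in *Cxxc1*-deficient cells only. Of the 7 with a mean of 100 or more, 3 (42.9%) were at least 2-fold lower, beside 56.8% of that level. *Klf3* had 447 and 327 and *Klf6* 263 and 220, differences smaller than the median of expressed genes. *Cd69*, whose protein removes S1PR1 from the surface, had 158 and 81. *Il7r*, a gene of mature SP cells, had 32 and 42. Over the 9 markers of mature SP cells the summed value was 814 in WT DP cells and 444 in *Cxxc1*-deficient DP cells. Most of that difference came from *Slfn2* (195 and 42) and *Emb* (247 and 81), and 3 of the 9 had a higher value in *Cxxc1*-deficient cells, among them *Il7r* and *Runx3* (46 and 73). *Slfn2*, *Emb*, *Runx3*, *Foxo1*, *Klf4*, *Klf11*, *Cd69*, *Il7r*, *Ccr8* and *Pecam1* were named after their values were seen.

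The machinery that acts below these receptors was lower with the other expressed genes. Of 22 genes of migration, 21 had a lower value in *Cxxc1*-deficient cells (59.9% of all genes did) and 11 were at least 2-fold lower, with a median log2 ratio of -0.99; of the 18 with a mean of 100 or more, 8 (44.4%) were at least 2-fold lower, beside the 56.8% of that level. The largest difference was that of *Was*, which drives actin branching at the leading edge, with 203 in WT DP cells and 34 in *Cxxc1*-deficient DP cells and an interval of the fold reduction from 3.53 to 11.3. *Rap1b*, a GTPase of integrin activation, had 540 and 170, and *Coro1a*, an actin regulator needed for thymic egress, had 501 and 176. The exchange factor gene *Arhgef6* had 383 and 141. Of 20 genes of G proteins, receptor kinases, arrestins and RGS proteins, 4 (20%) were at least 2-fold lower, close to the 17.4% of all genes, and of the 7 with a mean of 100 or more 3 (42.9%) were, beside 56.8% of that level. Among the 4 were *Gnai3*, a subunit that couples to chemokine receptors, with 486 and 139, *Gnb1* with 264 and 92, and *Rgs10*, which limits such signals, with 440 and 124. *Rgs19* differed little, with 229 and 205, as did *Pik3cg*, *Mob1a* and *Elmo1*, whose fold reductions were 1.37, 1.32 and 1.26.

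Adhesion genes went in both directions. *Itgb1*, the integrin beta 1 chain, had 309 in WT DP cells and 83 in *Cxxc1*-deficient DP cells, which is 3.72-fold lower (interval 2.86 to 4.96). Its partner *Itga4*, the alpha 4 chain, had 189 and 254, a ratio of 1.34 with an interval from 1.18 to 1.53. *Cd47*, which restrains phagocytes, had 466 and 533, with an interval of the ratio from 1.02 to 1.28. With reads taken from the shortest annotated transcript, the interval was 0.963 to 1.88 for *Itga4* and 0.851 to 1.52 for *Cd47*, and both include 1. For *Itgb1* the fold reduction then had an interval from 2.01 to 8.35. The rises of *Itga4* and *Cd47* thus depend on the transcript length used. These 2 genes were the exceptions among the 43 genes of the homing lists with a mean of at least 100, of which 41 had a lower value in *Cxxc1*-deficient cells, as did 95.2% of all genes of that level. Of the 43, 19 (44.2%) were at least 2-fold lower beside 56.8% of all genes of that level, with medians of -0.94 and -1.08 on the log2 scale. Over all 99 listed genes above 0, 25 were at least 2-fold lower and 4 were at least 2-fold higher, beside 17.4% and 5.89% of all genes. Scaled to equal medians of the expressed genes, the counts were 1 lower and 29 higher, beside 706 and 7492 of all 20125 genes above 0.

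**Figure D5:**
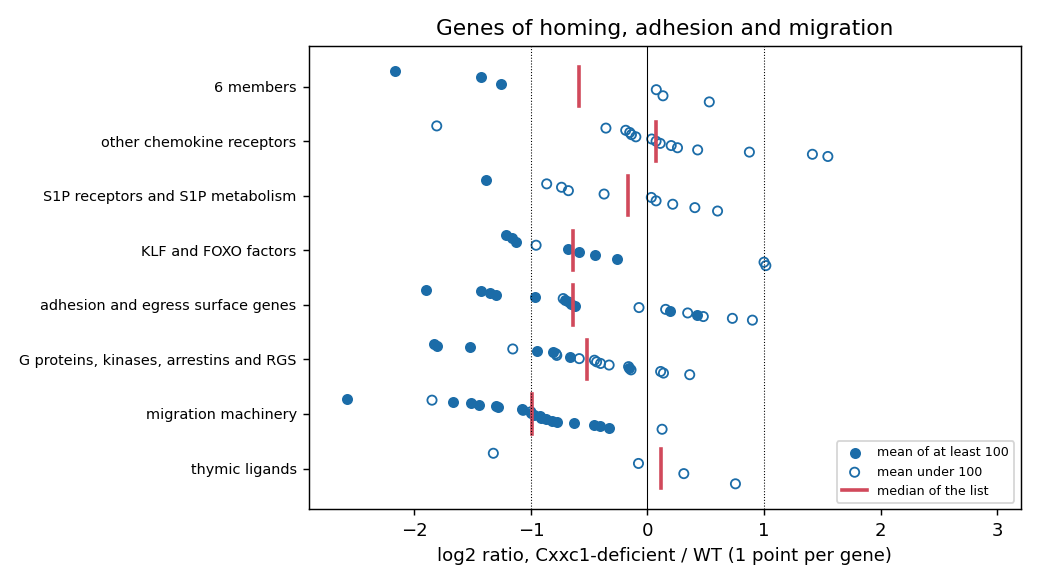
Log2 ratio of *Cxxc1*-deficient to WT for the 6 members and for 7 lists of homing, adhesion and migration genes, 1 point per gene, filled where the mean of both libraries is at least 100, with the list median as a red bar and 2-fold as dotted lines. Filled points lie almost all below 0, and open points spread around 0.

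Markers of other cells were examined beside these values. The 6 B cell markers summed to 196 in WT DP cells and 167 in *Cxxc1*-deficient DP cells, the 8 macrophage and dendritic cell markers to 285 and 291, the 7 erythroid markers to 89 and 101 and the 6 NK and innate lymphoid markers to 249 and 192, and of these 27 genes 3 in WT DP cells and 1 in *Cxxc1*-deficient DP cells exceeded the olfactory limit. The 5 markers of regulatory T cells, which also express *Ccr4*, summed to 402 and 253. Of these 5, 3 in WT DP cells and 2 in *Cxxc1*-deficient DP cells exceeded the olfactory limit. *Foxp3*, with 40 and 20, was under it in both libraries. The part of regulatory T cells in the value of *Ccr4* was not tested.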

How the data were processed

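mRNA libraries of DP thymocytes, 1 per genotype, were sequenced by the authors with 50-base reads on an Illumina HiSeq. Reads were mapped to mm9, and uniquely mapped reads were summarised with the Partek Genomic Suite 6.6. The submitters' processing notes name CASAVA 1.8.2 and Bowtie 1.0.1. The annotation is not given in the sources used here. The deposited unit is a score: per gene, a normalized expression level that the authors rounded to whole numbers.

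The 6 genes and all lists were chosen with earlier results of these data known. Ratios were taken between deposited values raised to at least 1, with a threshold of 2-fold. Where no test was possible, genes were set beside all genes and beside genes of like mean. For genes with 1 annotated transcript of 300 to under 1200 bases in GENCODE vM1 (NCBIM37, the build of mm9), value times length falls on multiples of 1 constant per library. In the WT library 80.5% of 1811 such genes, and in the Cxxc1-deficient library 79.2% of 1739, were within 0.15 reads of a whole number. Reads of other genes used the longest annotated transcript, and summed to approximately 1404302 and 724500 on 19090 genes. Genes named were the 6 members; of the homing lists, with a mean of at least 100, the 8 that were most reduced and the 8 that were least reduced or raised; ligands, chemokine receptors and S1P receptors with a mean of at least 20; markers of DP cells; and the nearest listed gene of each member. Some genes of these lists are not reported here. Of 107 listed homing genes, 103 matched by symbol. Other scalings, background subtraction, pseudocounts, thresholds and a filter were tried. The method was tested on simulated data. Scripts ran on Python 3.11.15 with scipy 1.17.1, pandas 2.3.3, numpy 2.4.6 and matplotlib 3.10.9.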

Additional observations from a re-analysis of the deposited data

How the results depend on the processing

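The scaling of the libraries decides how many of the 6 genes pass 2-fold. The count of 3 was 1 after scaling to equal sums that leave out the 100 most abundant genes, 1 after scaling to equal medians of the expressed genes (mean of 100 or more), 0 with quantile normalization and 1 at 3-fold. The 6 genes held 0 at least 2-fold higher as deposited, 1 after the first of these scalings, 3 after the second and 1 after subtraction of the olfactory receptor median. The median log2 ratio of the 6 genes, -0.59 as deposited, was 0.41 after scaling to the expressed genes and 0.12 with quantile normalization. The log2 ratio of Cxcr4 reversed from -1.25 to 0.13 with quantile normalization, since its rank was higher in Cxxc1-deficient cells. Over 8 other settings, the log2 ratio ran from -2.21 to -0.65 for Ccr9 and from -1.87 to -0.43 for Ccr4, and stayed below 0 in all 8; that of Ccr7 ran from 0.10 to 1.13, that of S1pr1 from 0 to 1.07 and that of Klf2 from 0.41 to 1.58.

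The homing list genes at least 2-fold lower, 25 as deposited, were 11 after scaling to equal 75th percentiles, 7 to equal sums without 100 genes, 1 to the expressed genes, 4 with quantile normalization, 43 after subtraction of the olfactory receptor median, 50 at 1.5-fold and 7 at 3-fold. Over all genes, 3502 as deposited became 1783, 1317, 706, 1686, 7527, 6415 and 1267 in the same order, and 2312 with a pseudocount of 10. Those at least 2-fold higher, 1186 as deposited, were 2417, 3468, 7492, 1650 and 3038 in the first 5 of these settings. Those of the homing lists, 4 as deposited, were 10 to equal sums without 100 genes, 29 to the expressed genes, 8 with quantile normalization and 11 after the subtraction. The first 3 scalings multiply the Cxxc1-deficient library by 1.31, 1.48 and 2.0, which moves the log2 ratio of every gene up by 0.39, 0.56 and 1.00. With the shortest annotated transcript for the reads, a setting chosen after seeing the data, the interval of the fold reduction was 3.96 to 5.10 for Ccr9, 1.75 to 3.29 for Cxcr4 and 1.61 to 4.60 for Ccr4. The depth limits Ccr7, S1pr1 and Klf2, with fewer than 30 reads each per library. No paired analysis was possible because the study has a single library of each kind.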
